A study of Oncorhynchus kisutch with 206 samples.

Results

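A set of 200 microarray probes gave a value in the brain of many coho salmon (Oncorhynchus kisutch) smolts and of few fish caught in the ocean fall. The value table holds 43630 probes, and 32688 of them were empty on at least 1 array. For each of these 32688 probes, the share of fall arrays with a value was subtracted from the share of smolt arrays with a value. The 200 probes with the largest difference are the members described here. The measured presence of values in smolts and fall therefore chose them, and every difference between smolts and fall below is a description with no test.

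Each of the 206 arrays held the brain RNA of 1 fish, labelled with Alexa 555, against a pool of all brain samples labelled with Alexa 647. The fish covered 6 life stages, 2 sampling years (2008 and 2009), and hatchery and wild origin. The labels name no treatment.

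The 5 parr came from a hatchery and were taken in the Chilliwack river in 2008. The 51 smolts were taken in rivers. In 2008 there were 16, all from the Chilliwack. In 2009 there were 35, of which 10 came from the Capilano, 8 from the Chehalis, 8 from the Puntledge and 9 from the Salmon river. Of the smolts, 33 were hatchery fish and 18 were wild. The 12 ocean spring fish were wild and came from the southern Strait of Georgia, the inland sea behind Vancouver Island, in 2009. The 51 ocean summer fish comprised 8 of 2008, all from the Strait, and 43 of 2009, with 35 from the Strait and 8 from the west coast of Vancouver Island; 23 were hatchery and 28 wild. The 78 ocean fall fish comprised 11 from the Strait and 17 from the west coast in 2008, and 43 from the Strait and 7 from the west coast in 2009. Of these, 31 were hatchery and 47 wild. The 9 ocean winter fish, all of 2009, came from the Strait (3) and the west coast (6), and 4 were hatchery fish. Place names were read from abbreviated labels together with their catch coordinates. Spring, winter and parr each came from 1 year, so their stage cannot be told apart from that year, and parr and spring also came from 1 place.

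Smolting is the change by which a river-dwelling juvenile salmon becomes able to live in sea water. The gill turns from taking up salt to excreting it, the body silvers, and thyroid hormone, growth hormone and cortisol take part. The brain steers this through the pituitary and, in the same period, the young fish learns the odours of its home stream. Parr precede this change, and the ocean fish follow it as they feed and grow at sea. The probes carry position names (C for the column and R for the row of the array), and no gene or sequence is paired with them in the tables at hand. The members are therefore described as probes, with no role given to any of them, and the labelled tissue could not be checked against marker genes.

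A value is a ratio on a log scale, likely log2 and likely fish over pool. No label states the base or the direction, and a natural log is not excluded. A cell of the table is either filled or empty, and presence below means that it is filled. The rule by which cells were left empty is not given in the sources used here, so an empty cell is not read as absence of the RNA. Of all cells, 34.5% were empty. The share of empty cells on an array was computed over the probes that are not members and ran from 16.7% to 57.5%. Its median was 28.1% in parr, 33.3% in smolts, 29.3% in spring, 32.7% in summer, 35.5% in fall and 31.9% in winter. The 18 control rows of a second table had values in 56.1% of their cells in smolts and in 57.7% in fall.

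The difference in presence between smolts and fall had a median of 42.7 percentage points over the members and of 2.34 points over all partly empty probes. The limit fell at 39.5 points, where 2 probes lay inside and 2 tied probes lay outside by the order of their names. At or above this limit stood 0.618% of the partly empty probes in the direction that chose the members, and 0.0459% the other way. The last member, C178R016, had a value in 28 of 51 smolts and 12 of 78 fall fish. The first probe outside, C215R064, had the same counts.

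The largest difference, 66.4 points, belonged to C175R072. It had a value in 5 of 5 parr, 45 of 51 smolts, 8 of 12 spring, 35 of 51 summer, 17 of 78 fall and 5 of 9 winter fish. Where present, its log ratio in smolts ran from -0.72 over a median of 0.76 to 3.14, and in fall from -0.59 over -0.18 to 1.40. The ranges overlapped. In summer its median was 0.59 and in winter 0.21. By year, it was present in 11 of 16 smolts of 2008 and 34 of 35 of 2009. In fall it was present in 3 of 11 Strait fish and 6 of 17 west coast fish of 2008, and in 5 of 43 and 3 of 7 of 2009.

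The second, C047R060, differed by 62.4 points. It was present in 3 of 5 parr, 39 of 51 smolts, 12 of 12 spring, 33 of 51 summer, 11 of 78 fall and 2 of 9 winter fish. Its log ratio ran in smolts from -0.66 over a median of 0.42 to 1.6 and in fall from -0.22 over 0.13 to 2.66, again with overlap. Summer fish of the Strait carried it in 2 of 8 cases in 2008 and in 24 of 35 in 2009. The 2 leading probes therefore differed in spring, where the second was filled on every array and the first on 8 of 12.

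Presence of the members declined from spring to fall and was higher again in winter. The median member was filled on 80% of parr arrays, 70.6% of smolt arrays, 75% of spring arrays, 58.8% of summer arrays, 26.9% of fall arrays and 44.4% of winter arrays. The same medians over all partly empty probes were 80%, 62.7%, 83.3%, 63.7%, 48.7% and 66.7%. In whole brain, fewer cells of a type, less RNA per cell and values left empty for technical reasons cannot be told apart. The members lay above the median of all such probes in smolts and below it in spring and in each later stage.

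Individual members followed this order to different degrees. Between summer and fall 199 of 200 members were lower in fall, against 72.0% of all partly empty probes. Between spring and summer 186 members were lower in summer, against 68.1%. Between fall and winter 164 members were higher in winter, with a median difference of 16.9 points. Over all partly empty probes the median difference was 2.14 points and 30.8% were lower in winter. The fall shares in these counts were used to choose the members.

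Set against the midpoint between its own smolt and fall shares, a member stood above it in parr for 192 of 200 members and in spring for 193. In summer 161 members stood above the midpoint and 39 below. In winter 83 stood above and 117 below. Summer and winter did not go together in every member: 92 were above in summer and below in winter, 69 were above in both, 25 below in both and 14 below in summer and above in winter. In winter 16 members reached at least their smolt share and 36 were at or under their fall share. C236R114 and C116R121 had no value on any of the 9 winter arrays, and C136R122 and C201R129 had one on all 9; these 4 were named after their values were seen.

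Counted by array, a smolt carried between 21 and 196 of the 200 members, with a median of 158. Fall fish carried between 1 and 183, with a median of 44. Parr ran from 90 over a median of 172 to 196, spring from 49 over 162 to 193, summer from 10 over 126 to 192 and winter from 10 over 93 to 154. Every pair of stages overlapped. More than 100 members were present on 41 of 51 smolt arrays and on 11 of 78 fall arrays, while fewer than 50 were present on 4 smolt arrays and 45 fall arrays. Summer was the most spread of the large groups, with 31 of 51 arrays over 100 members and 11 under 50.

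The 200 probes with the largest difference the other way, filled more often in fall, gave another course. Their median number per array was 128 in parr, 63 in smolts, 123 in spring, 114 in summer, 134 in fall and 148 in winter. Spring and summer arrays thus carried members in numbers between or near those of smolts and the opposite set in numbers near those of fall. Both sets were chosen on the same smolt and fall arrays.

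The number of members on an array moved with the empty share of that array. Over the 51 smolt arrays Pearson's r was -0.78, over the 12 of spring -0.72, over the 51 of summer -0.92 and over the 78 of fall -0.84, with Spearman's rho of -0.77, -0.82, -0.91 and -0.93. These are descriptions: members and other probes of an array share its hybridisation and scan. The opposite set moved the same way, with r of -0.76 in smolts and -0.86 in fall.

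Numbers of members were also described among arrays of like empty share. The smolt and fall arrays of each band also entered the choice of members, so their difference is no support. Among arrays with 25% to 35% empty cells, 30 smolts carried a median of 176 members (86 to 196), 7 spring fish 144 (95 to 175), 24 summer fish 147 (52 to 172), 36 fall fish 82 (31 to 155) and 8 winter fish 95 (61 to 154). Smolt and fall arrays of this band had median empty shares of 31.0% and 32.2%. Between 35% and 45%, 15 smolts carried a median of 112 members, 12 summer fish 49 and 28 fall fish 24.5. Over 45%, 3 smolts carried a median of 45, 6 summer fish 22.5 and 12 fall fish 6.5. Under 25%, the 2 fall arrays held 165 and 183 members, within the range of the 9 summer arrays (139 to 192).

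By single member in the band of 25% to 35%, all 200 were filled more often in smolts than in fall, by a median of 42.2 points (13.9 to 71.7). The choice of members favours high shares in smolts and low shares in fall in each band. In the same band 192 members were filled more often in summer than in fall, by a median of 29.2 points. Between 35% and 45% the corresponding counts were 200 and 166, with medians of 38.6 and 13.1 points. In a linear model with the empty share of the array as a covariate, all 200 members stayed higher in smolts than in fall. Their median difference was then 33.5 points (lowest 25.7), against 0 over all partly empty probes. The same arrays chose the members, so this too is a description and no support. The part of the empty share in the difference between stages was not tested.

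Smolts and fall fish that shared a slide are described side by side. Their arrays also entered the choice of members, so the direction is no support. The arrays lay on 61 slides, and 10 slides held both stages, with 14 smolts and 13 fall fish. On each of these 10 slides every smolt carried more members than every fall fish. The median of the 10 differences between slide means was 81.5 members. The fall arrays were emptier on 8 of these slides. On the other 2, the smolt mean was 190 against 183 in fall and 176 against 108. By position on the slide, the median ran from 89 members at position 1 to 116.5 at position 4.

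The members lay in every part of the array surface, but not evenly over its columns. The last of 4 equal parts of the columns (200 to 266) held 69 members, or 34.5%, against 25.5% of the partly empty probes, and the rows were filled evenly, with 46 to 54 members in each of 4 parts. A neighbouring member touched 5 of the 200. Over the 206 arrays, a pair of members was in the same state, filled or empty, on a median of 69.4% of arrays, from 43.7% to 90.3% over 19900 pairs. The members most like C175R072 were C016R049, in the same state on 80.1% of arrays, and C186R128, on 79.1%. The members most like C047R060 were C186R128, on 85.4%, and C125R089, on 83.5%.

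The log ratio is a second readout, given where a cell was filled. The median over members of their median log ratio was 0.46 in parr, 0.17 in smolts, 0.22 in spring, 0.12 in summer, 0.03 in fall and 0.13 in winter. Over all partly empty probes it was 0.03, 0.01, 0.02, 0.01, 0.09 and 0.10. In parr 184 members had a median above 0, in smolts 171, in summer 137 and in fall 110. From summer to fall the ratio was lower in 137 members and higher in 63, against 40.5% lower among 31290 partly empty probes. Ratios are missing where cells are empty, so these medians rest on different fish from stage to stage.

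The number of members also differed by place and year within stages. In fall the Strait fish of 2008 carried a median of 47 members (n = 11) and the west coast fish of that year 82 (n = 17). In 2009 these medians were 26 (n = 43) and 47 (n = 7). Within the Strait in 2009 the northern and middle part had a median of 21 (n = 21) and the southern part 31 (n = 22). In winter the medians were 78 in the Strait (n = 3) and 95 on the west coast (n = 6). The median empty share was 33.4% in west coast and 38.6% in Strait fall fish over both years. In the band of 25% to 35% empty cells, Strait and west coast fish of 2008 both had a median of 82 (n = 5 and 11), and those of 2009 had 60 (n = 17) and 108 (n = 3).

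Summer split by year in the opposite direction. The 8 Strait fish of 2008 carried 21 to 171 members with a median of 41.5 (40 in the northern and middle Strait, n = 5, and 43 in the southern, n = 3), and the 35 Strait fish of 2009 a median of 130. The 6 southern Strait fish of 2009 nevertheless had a median of 53.5, against 139 in the 29 of the northern and middle Strait. The 8 summer fish of the west coast had a median of 155. Median empty shares were 40.8% in the Strait fish of 2008 and 30.8% in those of 2009. Within 2009 they were 35.9% in the southern Strait, 30.3% in the northern and middle Strait and 31.8% on the west coast. In the band of empty share used for fall above, Strait fish had medians of 118 in 2008 (n = 2) and 149 in 2009 (n = 17). The part of the empty share in these differences in number was not tested. In smolts the medians in number lay closer, at 163 in 2008 and 156 in 2009, with median empty shares of 29.9% and 33.7%. Over the 4 rivers of 2009 the medians in number ran from 146.5 to 180.5. All smolts of 2008 came from another river, the Chilliwack, so year and river cannot be told apart. The part of the empty share in these smolt counts was not tested.

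Hatchery and wild fish differed in the same groups. Smolts of hatchery origin carried a median of 166 members (n = 33) and wild smolts 137.5 (n = 18), with median empty shares of 32.1% and 34.8%. In fall, hatchery fish carried 26 (n = 31) and wild fish 56 (n = 47), with empty shares of 39.3% and 34.2%. All smolts of the Chehalis and Puntledge were hatchery fish and all of the Salmon river were wild. The Chilliwack and Capilano gave both. Origin and river were therefore partly joined in smolts. Place, origin and empty share moved together in fall. In neither stage were their parts tested.

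Tests were run on comparisons other than smolts against fall. Presence was tested per probe with a two-sided Fisher's exact test over arrays, and log ratios with limma with the slide as a random block, each adjusted by the Benjamini-Hochberg method over all probes tested. Each family had 9 comparisons. Members were filled on middle shares of arrays. In summer their lower and upper quartiles were 47.1% and 66.7%, against 13.7% and 96.1% for all partly empty probes. A probe that is nearly always filled or nearly always empty has less room to differ in presence. Counts at an unadjusted p and median differences in presence are therefore not like for like between members and all probes. Log ratio fits use filled cells alone, and members were filled less often than all partly empty probes from spring on. The probes tested in log ratio also include the 10942 filled on every array, and no member is among these. The share of members called in log ratio is therefore not like for like with that of all probes, in smolts as in the other stages.

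The tests within fall and within smolts use presence values that also entered the choice of members. The rule used each probe's total in a stage, and 50 of the 78 fall fish were of 2009, 54 of the 78 were from the Strait and 35 of the 51 smolts were of 2009. Probes low in fall of 2009, low in the Strait in fall or high in smolts of 2009 were therefore favoured. In these comparisons the direction of the members, and their excess over all probes, are descriptions and no support.

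Summer was set against spring to see whether the decline began between them. The median difference in presence, summer minus spring, was -18.6 points over the members and -8.82 over all 22320 probes tested. Within the southern Strait in 2009, where all spring fish were taken, it was -50 points over the members and -25 over all probes (12 spring and 6 summer fish). There 62 of 193 members stood at an unadjusted p under 0.05 by Fisher's test, against 1773 of all 12098 probes tested, and 0 were called. Over all spring and summer fish, no member passed the adjusted Fisher test, and no probe did (0% called). At an unadjusted p under 0.05 stood 24 of 200 members, all lower in summer, and 5.26% of all probes. Limma on presence with the empty share and slide also called 0. Its median change was -0.026 over the members and -0.012 over all probes, on a scale where 1 is all arrays. In that fit 79 members were higher in summer and 121 lower. Log ratios changed in 0 of 199 members, against 0.143% of all probes, with 13 members at an unadjusted p under 0.05, against 9.76% of probes.

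Winter against summer and summer against parr gave the same count for presence. No member and no probe (0% called) passed the Fisher test in either. At an unadjusted p under 0.05 there were 18 members in the first, against 2.53% of probes, and 13 in the second, against 6.25%. The median difference, winter minus summer, was -13.1 points over the members and -0.65 over all probes, and -29.2 and -8.33 within the west coast in 2009. No slide held both winter and summer fish, so the slide term cannot separate these stages from the slides. Limma on presence with the empty share and slide called 1 member lower in winter than in summer, against 0.0501% of probes in either direction and 0.0182% lower. It called 2 members lower in summer than in parr, against 0.48% and 0.43%. In these fits the median change, winter minus summer, was -0.12 over the members and -0.0004 over all probes, on the same scale. For summer minus parr it was 0.005 and -0.012, against -17.5 and -11.8 points without these terms.

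Log ratios changed in 5 of 149 members between summer and winter, 4 of them lower in winter, against 7.98% of all probes. Stage and slide cannot be told apart in these calls either. C034R020 rose in winter. It had values of 0.23, 0.25, 0.41, 0.44 and 0.61 in 5 winter fish and ran from -1.15 over -0.70 to 0.18 in 10 summer fish. The groups did not overlap. The change was 1.07 ± 0.236 (SE; limma, adjusted p = 0.0082). C159R076 fell by 1.29 ± 0.274 (SE; limma, adjusted p = 0.00184), from a summer median of 0.38 in 34 fish to values between -2.05 and -0.12 in 5 winter fish. C171R169 fell by 1.28 ± 0.216 (SE; limma, adjusted p = 0.000171), from 0.30 in 31 fish to between -1.44 and -0.36 in 4.

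Between parr and summer 5 of 184 members fell in log ratio and none rose, against 1.74% of all probes in either direction and 0.635% lower. C034R020 had 0.29, 0.40, 0.47, 0.63 and 1.42 in the 5 parr, above all 10 summer values, and fell by 1.36 ± 0.269 (SE; limma, adjusted p = 0.0115). The same 10 summer values enter both calls of this probe. C143R113 had 0.36, 0.66, 1.72 and 1.90 in 4 parr and a median of 0.21 in 36 summer fish, with overlap, and fell by 1.00 ± 0.236 (limma, adjusted p = 0.0151). Without parr 38 the count was 1 of 135 members, against 195 of 30034 probes in either direction and 43 lower. Without parr 39 it was 2 of 175 members, against 234 of 31353 probes and 52 lower. C034R020 was not called without parr 38, where it still changed by -1.13. C143R113 was not called in either case, at -0.75 without parr 38 and -0.80 without parr 39.

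West coast fish of fall were set against Strait fish of fall. Presence was higher on the west coast by a median of 20.4 points over the members, in 187 of 200, and by 6.48 points over all probes tested. Within 2009 these medians were 15 and 4.98 points, and within 2008 they were 17.1 and 7.49. The Fisher test called 1 member, C071R036, as higher, against 0.0436% of all probes in either direction and 0.0392% higher. It was filled in 10 of 24 west coast and 1 of 54 Strait fish (adjusted p = 0.0355). It was not called without arrays over 45% empty, where the difference was 45.4 points against 39.8, nor within 2008 (47.1 points) or 2009 (26.2 points), where fewer fish enter. At an unadjusted p under 0.05 stood 85 members, all higher on the west coast, and 12.2% of probes. Limma with the empty share and slide also called 1 member, against 0.0479% of probes.

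Coast and year were joined in fall: 17 of 24 west coast fish were of 2008 and 43 of 54 Strait fish were of 2009. No fit of the fall log ratios had both as terms, so for each probe named in the fall tests of log ratios the parts of coast and year were not tested apart. Log ratios between coasts changed in 6 of 187 members, 5 higher on the west coast, against 22% of all probes. The median member was filled on 26.9% of fall arrays, against 48.7% for all partly empty probes, so these fits rest on fewer values. C107R091 ran from -0.01 over 0.56 to 1.25 in 11 west coast fish and from -1.31 over -0.05 to 0.53 in 12 Strait fish, higher by 0.71 ± 0.198 (SE; limma, adjusted p = 0.0108). C135R156 was higher by 0.59 ± 0.161 (SE; limma, adjusted p = 0.00825), with medians of 0.57 in 13 and 0.07 in 14 fish. C245R065 was lower, with -0.59, -0.27 and -0.26 in 3 west coast fish against a median of 0.63 in 8 Strait fish, a change of -0.94 ± 0.312 (limma, adjusted p = 0.0441). With the empty share as a covariate it was -0.86 and not called.

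Fall of 2009 was set against fall of 2008. The median difference in presence, 2009 minus 2008, was -17.3 points over the members and -6 over all probes tested. Within the northern to middle Strait it was -8.66 over the members and -8.23 over all probes, and within the west coast -10.1 and -10.9, so the members did not lie below all probes to that extent within a place. The Fisher test called 7 members, all lower in 2009, against 2.25% of all probes in either direction and 2.12% lower. C200R066 fell from 21 of 28 fish to 10 of 50 (adjusted p = 0.00697) and C083R021 from 20 of 28 to 12 of 50 (adjusted p = 0.019). Within the northern to middle Strait and within the west coast, with fewer fish, no member was called. C200R066 differed there by -49.4 and -39.5 points against -55 over all fall fish, and C083R021 by -44.6 and -19.3 against -47.4. With the empty share and slide in limma 4 members were called, 2 in each direction, against 0.527% of probes.

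Log ratios between these years changed in 12 of 186 members, 8 lower and 4 higher in 2009, against 29.1% of all probes. C107R091 was lower by 0.81 ± 0.188 (SE; limma, adjusted p = 0.00222), with a median of -0.07 in 10 fish of 2009 and 0.53 in 13 of 2008. C178R140 was lower, with medians of 0.17 in 15 and 0.93 in 7 fish (limma, adjusted p = 0.0393). C198R044 was higher in 19 fish of 2009, with a median of 0.29, than in 3 of 2008, at -0.74, -0.69 and -0.59, without overlap (limma, adjusted p = 0.0277). C245R065 was higher in 2009 (adjusted p = 0.0355, limma), and its 3 values of 2008 were the 3 west coast values given above. Year and coast cannot be told apart for this probe. With the empty share as a covariate 3 of these probes were not called. Their changes were then -0.62 against -0.62 for C178R140, 0.83 against 1.13 for C198R044 and 0.86 against 0.94 for C245R065.

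Summer of 2009 was set against summer of 2008 in the Strait. Presence was higher in 2009 by a median of 25.4 points over the members, in 174 of 200, and 10.7 points over all probes. No probe passed the Fisher test (0% called). At an unadjusted p under 0.05 stood 37 members, 33 of them higher, against 15.2% of probes. With the empty share and slide, limma called 4 members, all lower in 2009, against 1.45% of probes in either direction and 0.599% lower, which is opposite to the median. Log ratios fell in 5 of 114 members, against 15.4% of probes in either direction and 7.06% lower. C117R137 had -0.75, -0.34, -0.28, 0.01 and 0.14 in 5 fish of 2009 and -0.08, 0.65, 1.08, 2.48 and 2.67 in 5 of 2008 (limma, adjusted p = 0.0391). C184R153 had medians of -0.46 in 25 fish and 0.53 in 6 (limma, adjusted p = 0.0114). Neither was called with the empty share as a covariate, at -0.82 against -1.60 and -0.41 against -0.88, nor with arrays scaled alike, at -1.22 and -0.81.

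Smolts were compared by origin and by year. The median difference in presence, hatchery minus wild, was 9.60 points over the members and 7.58 over all probes, and 23.3 and 10 within the Chilliwack in 2008. Over all smolts, origin and river were partly joined. By origin, no probe was called in presence or in log ratio (0% called in both; limma also called 0 on presence), with 7 of 199 and 11 of 200 members at an unadjusted p under 0.05, against 5.68% and 5.04% of probes. The median difference, 2009 minus 2008, was 6.79 and -4.64 points, and 0.87 and -3.91 within hatchery smolts. For 2009 against 2008, Fisher's test called 0 of 199 members against 0.453% of probes, with 27 members at an unadjusted p under 0.05, against 16.3% of probes. Limma with the empty share and slide called 22, all higher in 2009, against 7.29% of probes in either direction and 4.5% higher. Its median change was 0.13 over the members and -0.0012 over all probes, on a scale where 1 is all arrays. No slide held smolts of both years, so the slide term cannot separate year from slide, for presence or for log ratios. No river gave smolts in both years, so year and river cannot be told apart in these results. This also holds within hatchery smolts. Log ratios fell in 4 of 200 members in 2009, against 4.71% of probes in either direction and 1.39% lower. C211R137 had medians of 0.29 in 25 fish of 2009 and 0.76 in 13 of 2008 (limma, adjusted p = 0.0444). C265R089 had medians of -0.39 in 34 and 0.21 in 13 (limma, adjusted p = 0.0279). Both ranges overlapped. With the empty share as a covariate neither was called, with changes of -0.66 against -0.73 and -0.49 against -0.58.

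No member passed a test between west coast and Strait fish of summer 2009. Presence was higher on the west coast by a median of 13 points over the members and 6.79 over all probes. Fisher's test and limma called no probe (0%), with 4 members at an unadjusted p under 0.05 by Fisher's test, against 2.25% of probes. Log ratios were called in 0 of 192 members, against 0.0242% of probes, with 15 members at an unadjusted p under 0.05, against 15.5% of probes.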

How the data were processed

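Brain RNA of 206 fish was measured on 2-colour arrays without a dye swap, per the labels' protocols. The deposited value table was read as log2 ratios; how features were extracted, corrected and normalized, and what left cells empty, is not given in the sources used here. A second deposited table, whose unit is named by no column, was also read as log ratios. For the probes of the first table it held the same values in 100% of cells.

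Members and comparisons were chosen with earlier results of these data known. Presence was tested with Fisher's exact test (SciPy 1.17.1) on probes filled and empty on at least 3 arrays each. Log ratios were tested with limma 3.58.1 in R 4.3.3 (at least 3 values a side, a random slide effect whose 1 consensus correlation came from up to 2000 probes filled on at least 50% of arrays). Benjamini-Hochberg adjustment ran over all probes tested, with a threshold of 0.05. Both tests were tried on simulated data. Each fish number was taken as 1 animal. Named probes are the 2 leading members, those at the limit, and per test at most 2 called members higher and 2 lower with the largest difference. Alternatives changed the filter, fish, slide term, scaling or test, or added the empty share.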

Additional observations from a re-analysis of the deposited data

Results flagged for a closer look

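The year difference in presence was unlike in fall and summer of the Strait for 13 of 200 members (limma, adjusted p under 0.05). The fit was on presence, filled or empty, with a term for season by year and the slide as a block. Of the 13 members, 11 had a more negative year difference in fall. Over all probes tested 3.9% were called in either direction and 3.52% with a more negative year difference in fall. The members were chosen on these fall values, and 50 of the 78 fall fish were of 2009, so the choice favours this direction. The median term was -0.28 over the members and -0.08 over all probes, on a scale where 1 is all arrays. With the empty share as a covariate 7 members were called, 3 of them negative, against 2.64% of probes in either direction and 1.3% negative. The comparison was added after the data were seen and rests on 8 and 11 fish of 2008 and 35 and 43 of 2009.

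For log ratios the same term was called in 3 of 76 members, against 33.8% of all probes. Members had fewer filled cells in these stages, so these shares are not like for like. Among 11 groups of 4 to 10 arrays, 0 had an array whose number of members stood apart from the rest; chance alone would mark about 1 group in 20.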

How the results depend on the processing

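Counts of called members were small and moved with the setting. Median changes in presence over the members moved as well in limma with the empty share and slide, where 1 is all arrays. They were 0.11 in fall by coast, -0.09 in fall by year, 0.05 in Strait summer by year and 0.04 in summer by coast. For smolts they were -0.02 by origin and 0.13 by year. Over all probes these medians lay between -0.0015 and 0.016. For presence, limma with the empty share and slide called 1 member in winter against summer, 2 in summer against parr, 4 in fall by year, 4 in Strait summer by year and 22 in smolts by year, against 0, 0, 7, 0 and 0. The shares over all probes for these fits are given with each comparison above. In fall by year, 4 were called with 1 array filled and 1 empty as the filter, which tests more probes (337 of 29308 called). Without arrays over 45% empty (chosen after seeing the data) 4 were called, against 309 of 20674 probes. Within the northern to middle Strait or the west coast 0 were called, and no other probe was. In fall by coast, 0 were called without arrays over 45% empty, against 5 of 20674 probes. Within 2008 or 2009, 0 were called there, and no other probe was. For log ratios, scaling each array gave 3 members in winter against summer, where 1907 of 31522 probes were called. It gave 2 in Strait summer by year (2003 of 29370 probes) and 10 in smolts by year (1752 of 34767). At least 5 values a side gave 3 in winter against summer (2540 of 29044). No slide term gave 10 in summer against parr (970 of 31815) and 7 in smolts by year (2445 of 34767). The empty share gave 5 in fall by year (6016 of 34856) and 0 in Strait summer by year (2300 of 29370). Leaving out each parr gave 1 to 7 members, with 195 to 701 probes called among 28802 to 31353 tested. The season-by-year term called 7 members with the empty share (4 of the other sign), against 2.64% of probes in either direction and 1.3% negative. It called 24 in the northern to middle Strait, against 7.93%, and 24 without arrays over 45% empty, against 6.79%. The 200 probes shared 100 with those chosen in 2009 alone, 18 in 2008 alone, 100 in hatchery and 89 in wild fish. They shared 147 with those chosen with fall fish of the Strait only and 170 with those from arrays 25% to 45% empty. With the empty share as a covariate 165 were shared, and with the smallest Fisher p as the rule also 165. Within 2008, 193 members were filled more often in smolts. The median difference there was 28.6 points over the members and 0 over all partly empty probes. The arrays of 2008 also entered the choice of members, so this direction is no support. Why the counts and the choice moved was not tested. No paired analysis was possible because replicate numbers are fish numbers, each used once. Slides shared by fish entered as a block. This block cannot separate slide from stage in winter against summer, or from year in smolts, because those groups shared no slide. In smolts, year and river cannot be told apart either.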
